A study of Mus musculus with 18 samples.

Results

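The 8 genes described here, Pou2f3, Gfi1b, Trpm5, Gng13, Avil, Dclk1, Sh2d6 and Ptpn6, were taken by name as genes associated with tuft cells, out of 36451 gene identifiers measured in mouse colon. All 8 were in the table, and 5 of them passed the filter on low values used for testing, which left 14007 genes. The data were 18 RNA sequencing libraries of colon tissue, 6 in each of the groups Control, Model and AKK, with totals of 53873744 to 82589848 estimated counts. Control mice were male C57BL/6J of specific-pathogen-free grade, aged 6 weeks, with no stated treatment. Model mice had 3% dextran sulfate sodium (DSS) in their drinking water for 1 week, which injures the colon epithelium, followed by gavage with phosphate-buffered saline. The AKK group received Akkermansia muciniphila, a mucin-degrading gut bacterium, as a weekly gavage of 0.1 mL (1500000000 colony-forming units per mL) over 6 weeks. DSS is stated for Model alone, and no age is given for Model or AKK, so whether AKK mice also received DSS is not known here. The study asked whether the bacterium alters colitis. The labels do not say whether the libraries of a group came from separate animals, so p-values measure only the spread between libraries.

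Tuft cells are rare chemosensory cells of the gut epithelium that carry a tuft of long microvilli. They detect luminal metabolites through a taste-like pathway, in which G proteins and phospholipase C release calcium and open the cation channel TRPM5, and in the small intestine they release interleukin 25, which acts on type 2 innate lymphoid cells. The transcription factor POU2F3 is required for their formation. Several genes used to recognise them are also expressed elsewhere, among them Ptpn6 in leukocytes and Dclk1 in neurons and fibroblasts.

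The genes covered a wide range of levels. Over all 18 libraries the mean FPKM, fragments scaled to transcript length and library size, was 15.2 for Ptpn6, 2.81 for Sh2d6, 1.68 for Avil, 1.40 for Dclk1, 1.10 for Trpm5, 0.568 for Pou2f3, 0.136 for Gfi1b and 0.0608 for Gng13. The range of Ptpn6 lay wholly above that of Sh2d6. All other neighbours in this order overlapped in range, and Sh2d6 exceeded Avil in 16 of 18 libraries, Avil exceeded Dclk1 in 14, and Dclk1 exceeded Trpm5 in 15. Pou2f3, Gfi1b and Gng13 did not reach an FPKM of 1 in at least 6 libraries and were below the filter. A summed FPKM over the 8 genes would be mostly Ptpn6, so no sum is used.

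A pair of Model libraries stood apart and touch most values below. Model_1337 had an FPKM of 1059 for Krt5, a keratin of squamous epithelium, against at most 0.328 in any other library, and its 12 epithelial marker genes summed to 1106 FPKM where every other library had at least 3371. Its level of Cdx2, the intestinal transcription factor, was 0.904 FPKM, against 63.3 to 101 in the Model libraries other than Model_1340. Model_1340 had a Cdx2 level of 20.9 and an FPKM of 100 for Hoxb13, a homeobox gene of the hindmost gut, but its epithelial markers summed to 3898 and its Epcam level was 489, within the range of the AKK libraries. In both, all 12 leukocyte marker genes had their highest levels of the 18 libraries, with sums of 443 and 393 FPKM against 44.0 to 209 elsewhere. A further Model library, Model_1341, had 17.0% of its counts on mitochondrial genes, against 3.93% to 8.59% in the others, and the lowest leukocyte sum, 44.0. Model against Control values that rest on these libraries are given with and without Model_1337 and Model_1340 as a pair, and without Model_1341 where that moved them by over 1.5 times or changed a call. The pair was chosen after the data were seen, so the direction in which leaving it out moves a value follows from its levels.

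Of the 5 members tested, Trpm5, Sh2d6 and Avil had their lowest levels in Model_1337 and Model_1340. Trpm5 encodes the calcium-activated channel at the end of the taste pathway, Avil encodes advillin, an actin-bundling protein of the villin family, and Sh2d6 encodes an SH2-domain adaptor enriched in tuft cells. Their promoter windows are shown because these genes varied together; each runs from 250 bases before to 50 bases after the RefSeq gene start on GRCm38.p6, on the gene's strand. Capitals mark the octamer core ATGCAAA or its reverse complement TTTGCAT, the core of the sequence that POU-domain factors such as POU2F3 recognise. The windows are Trpm5 at chr7:143094593-143094892 on the minus strand, Sh2d6 at chr6:72519987-72520286 on the minus strand, and Avil at chr10:127000459-127000758 on the plus strand.
Trpm5: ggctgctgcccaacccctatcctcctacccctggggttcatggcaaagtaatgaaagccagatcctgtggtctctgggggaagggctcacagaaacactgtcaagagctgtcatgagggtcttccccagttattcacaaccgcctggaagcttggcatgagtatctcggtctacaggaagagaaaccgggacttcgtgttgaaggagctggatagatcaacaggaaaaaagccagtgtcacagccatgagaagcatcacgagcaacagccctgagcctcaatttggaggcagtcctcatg
Sh2d6: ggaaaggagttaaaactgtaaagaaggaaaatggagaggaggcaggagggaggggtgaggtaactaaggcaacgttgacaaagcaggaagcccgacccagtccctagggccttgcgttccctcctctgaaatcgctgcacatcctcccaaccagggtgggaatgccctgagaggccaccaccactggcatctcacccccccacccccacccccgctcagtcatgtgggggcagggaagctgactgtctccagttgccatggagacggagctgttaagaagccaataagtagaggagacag
Avil: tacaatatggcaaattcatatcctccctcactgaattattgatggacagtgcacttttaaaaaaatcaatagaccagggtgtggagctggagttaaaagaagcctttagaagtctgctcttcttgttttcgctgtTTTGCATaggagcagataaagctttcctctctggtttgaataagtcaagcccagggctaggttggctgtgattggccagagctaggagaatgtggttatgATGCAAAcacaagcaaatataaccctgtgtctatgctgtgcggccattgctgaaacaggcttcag
The Avil window held 2 matches of the core, beginning 115 and 15 bases before the gene start, and the core was in 4.63% of all 32851 windows. No other window of a member held it. RefSeq windows were found for 7 of the 8 members, 9 windows in all, with Pou2f3 as the exception. The full octamer ATGCAAAT, on either strand, was in 0 of these 9 windows and in 1.74% of all windows. The letters AAATCAC, a core sequence of GFI1 and GFI1B sites, were likewise in 0 of the 9 and in 3.2% of all. The octamer core is part of the full octamer, and both strands were searched for all 3 motifs. The Trpm5 window is placed around a RefSeq gene start 7428 bases from the start in the deposited table, and that of Sh2d6 around one 1671 bases from it. The Trpm5 window lies wholly outside the deposited span of that gene.

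**Figure D1:**
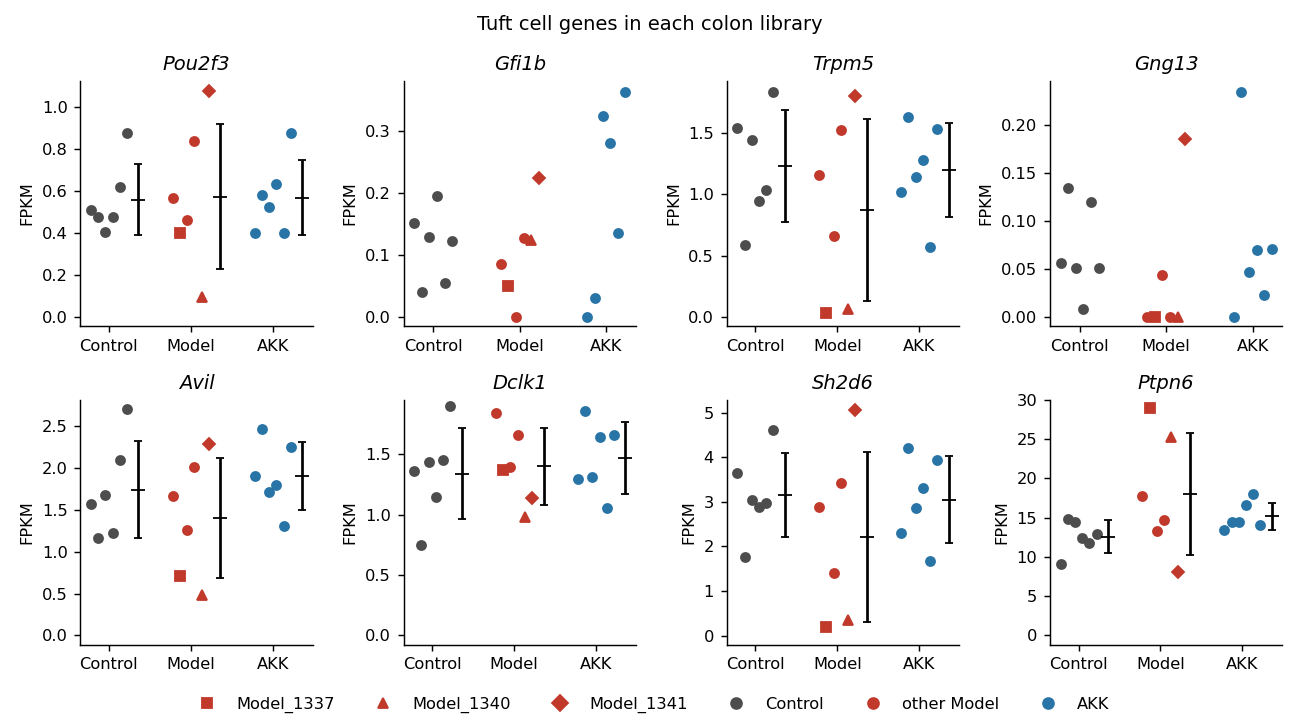
FPKM of each tuft cell gene (vertical axis, linear, a separate scale per gene) in the 18 libraries, grouped as Control, Model and AKK; each point is 1 library and the black bar is the mean with its SD (n = 6), left out for Gfi1b and Gng13, which are listed at 0 in some libraries. Trpm5 and Sh2d6 lie near 0 in Model_1337 (square) and Model_1340 (triangle), where Ptpn6 is highest, and Dclk1 shows no such drop.

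The transcription factors were low throughout. Pou2f3 (ENSMUSG00000032015, chr9:43123939-43210369 on mm10), the factor that specifies tuft cells, had an FPKM of 0.405 at lowest, 0.494 at the median and 0.876 at highest in Control. The same values were 0.0959, 0.515 and 1.08 in Model, and 0.399, 0.553 and 0.878 in AKK. The lowest and the highest of all 18 libraries were both Model libraries, Model_1340 and Model_1341, and the 3 groups overlapped. Model_1337, at 0.400, equalled the lowest AKK libraries, so Pou2f3 lay far below the other libraries in only 1 of the 2 libraries where Trpm5 was near 0. Its log2 fold change, fitted with edgeR on all genes with a count, was 0.01 ± 0.40 (SE) for Model against Control, -0.09 ± 0.40 for AKK against Model and -0.09 ± 0.40 for AKK against Control, with adjusted p-values of 1, 1 and 0.986. For Model against Control it was 0.40 ± 0.30 (adjusted p = 0.491) without Model_1337 and Model_1340, and -0.38 ± 0.38 (adjusted p = 0.556) without Model_1341. Gfi1b (ENSMUSG00000026815, chr2:28609450-28621982), a zinc-finger repressor also used by red cell and platelet precursors, had an FPKM of 0.0399 at lowest, 0.126 at the median and 0.195 at highest in Control, 0, 0.105 and 0.225 in Model, and 0, 0.208 and 0.363 in AKK. It was listed at 0 in Model_1338 and AKK_1302. A value of 0 allows up to 3 sequenced fragments, at about 4 counts to a fragment. Libraries with few counts, such as AKK_1303 at 4, are therefore not set apart from those at 0. The highest 3 values were AKK libraries, but AKK_1302 and AKK_1303 were among the lowest, so AKK spanned the whole range. At 0 to 59 counts per library its edgeR log2 fold changes had SEs larger than the changes, at -0.24 ± 0.85 for Model against Control, 0.77 ± 0.84 for AKK against Model and 0.54 ± 0.84 for AKK against Control. Without Model_1341 the first was -0.74 ± 0.89, and without Model_1337 and Model_1340 it was -0.10 ± 0.95. The 10 red cell and platelet genes summed to 1775 FPKM in Model_1337, 455 in Model_1338, 341 in AKK_1306 and 275 in AKK_1310, the 4 highest sums. Gfi1b was 0.0506, 0, 0.281 and 0.363 FPKM in these libraries. The sums were mostly globin genes and, in Model_1337, Ppbp at 1196 FPKM. Other genes of that list differed. Alas2 was highest in the same 4 libraries, at 2.57, 2.04, 2.17 and 1.39 FPKM, against at most 0.604 elsewhere. Itga2b and Pf4 were highest in Model_1337, at 1.35 and 26.2 FPKM. Gata1, Klf1 and Gp1bb were 0.0966, 0.075 and 0.0986 FPKM in Model_1337, within the range of the other libraries. The part of such precursors in the Gfi1b values was not tested.

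The taste pathway was represented by Trpm5 and Gng13. Trpm5 (ENSMUSG00000009246, chr7:143069153-143087214) had an FPKM of 0.588 at lowest, 1.24 at the median and 1.83 at highest in Control, 0.0359, 0.905 and 1.79 in Model, and 0.569, 1.21 and 1.63 in AKK. The groups overlapped, and Model_1337 and Model_1340 lay below every other library. Their values, 0.0359 and 0.0651 FPKM, were 2.91% and 5.27% of the Control median and stood for 16 and 30 estimated counts, with about 4 counts to a sequenced fragment. The other 4 Model libraries averaged 1.28 ± 0.49 FPKM (SD, n = 4), against 1.23 ± 0.45 (n = 6) in Control. The edgeR log2 fold change for Model against Control was -0.47 ± 0.64 (adjusted p = 0.635). It was 0.10 ± 0.35 (adjusted p = 0.886) without the 2 libraries and -0.94 ± 0.65 (adjusted p = 0.302) without Model_1341, where Trpm5 was highest in Model. Trpm5 overlaps Tssc4 on the opposite strand, which was at 8.01 FPKM or more in every library. The strand setting of the counting is not given, and the part of Tssc4 reads in the Trpm5 values was not tested. Gng13 (ENSMUSG00000025739, chr17:25717171-25719406), the G-protein gamma subunit of taste cells, gave 0 to 14 counts per library. It was listed at 0 in 4 Model libraries and 1 AKK library, was above 0 in all 6 Control libraries, and its highest FPKM per group was 0.134 (Control), 0.186 (Model) and 0.234 (AKK). It overlaps Chtf18 on the opposite strand, which was at 0.741 to 2.27 FPKM. No fold change is given for it at this depth.

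The cytoskeletal and kinase genes behaved differently from each other. Avil (ENSMUSG00000025432, chr10:127000709-127020994) had an FPKM of 1.17 at lowest, 1.62 at the median and 2.70 at highest in Control, 0.483, 1.46 and 2.28 in Model, and 1.31, 1.85 and 2.46 in AKK. Model_1340 and Model_1337 were again the lowest libraries, at 29.7% and 43.9% of the Control median, a smaller drop than that of Trpm5. Its edgeR log2 fold change for Model against Control was -0.31 ± 0.33 (adjusted p = 0.538), 0.08 ± 0.25 (adjusted p = 0.867) without them, and -0.60 ± 0.31 (adjusted p = 0.168) without Model_1341. Avil overlaps Tsfm, a mitochondrial translation factor on the opposite strand, which was at 4.13 to 9.11 FPKM. Dclk1 (ENSMUSG00000027797, chr3:55242364-55539068), a microtubule-associated kinase widely used as a tuft cell marker in mice, had an FPKM of 0.751 at lowest, 1.40 at the median and 1.896 at highest in Control, 0.982, 1.38 and 1.84 in Model, and 1.06, 1.48 and 1.86 in AKK. The 3 groups covered nearly the same range, and Dclk1 was at 98.3% of the Control median in Model_1337 and 70.3% in Model_1340. Its edgeR log2 fold changes were 0.02 ± 0.19 for Model against Control, 0.02 ± 0.19 for AKK against Model and 0.04 ± 0.19 for AKK against Control (adjusted p = 0.939, 0.988 and 0.913).

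The signalling genes moved in opposite directions in the libraries that stood apart. Sh2d6 (ENSMUSG00000052631, chr6:72513641-72521707), which overlaps no other annotated gene, had an FPKM of 1.76 at lowest, 3.01 at the median and 4.63 at highest in Control, 0.190, 2.14 and 5.06 in Model, and 1.66, 3.10 and 4.21 in AKK. Model held both the lowest and the highest library, Model_1337 and Model_1341, and Model_1340 was second lowest at 0.348 FPKM. These were 6.32% and 11.6% of the Control median for Model_1337 and Model_1340, and 168% for Model_1341. The other 4 Model libraries averaged 3.19 ± 1.51 FPKM (SD, n = 4) against 3.16 ± 0.95 (n = 6) in Control. The edgeR log2 fold change for Model against Control was -0.47 ± 0.56 (adjusted p = 0.577). It was 0.07 ± 0.35 (adjusted p = 0.923) without the pair and -1.03 ± 0.54 (adjusted p = 0.168) without Model_1341. Ptpn6 (ENSMUSG00000004266, chr6:124720707-124738625), which encodes the phosphatase SHP-1 and is abundant in leukocytes, had an FPKM of 9.06 at lowest, 12.7 at the median and 14.8 at highest in Control, 8.10, 16.2 and 29.0 in Model, and 13.4, 14.4 and 17.95 in AKK. Model_1337 and Model_1340 were highest, at 229% and 199% of the Control median, and Model_1341 was the lowest of all. Its edgeR log2 fold change for Model against Control was 0.45 ± 0.20 (adjusted p = 0.122), and 0.07 ± 0.15 (adjusted p = 0.807) without Model_1337 and Model_1340. Without Model_1341 it was 0.57 ± 0.18 and was called (adjusted p = 0.0307), and with a leukocyte score as covariate it was -0.11 ± 0.09 (adjusted p = 0.505).

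**Figure D2:**
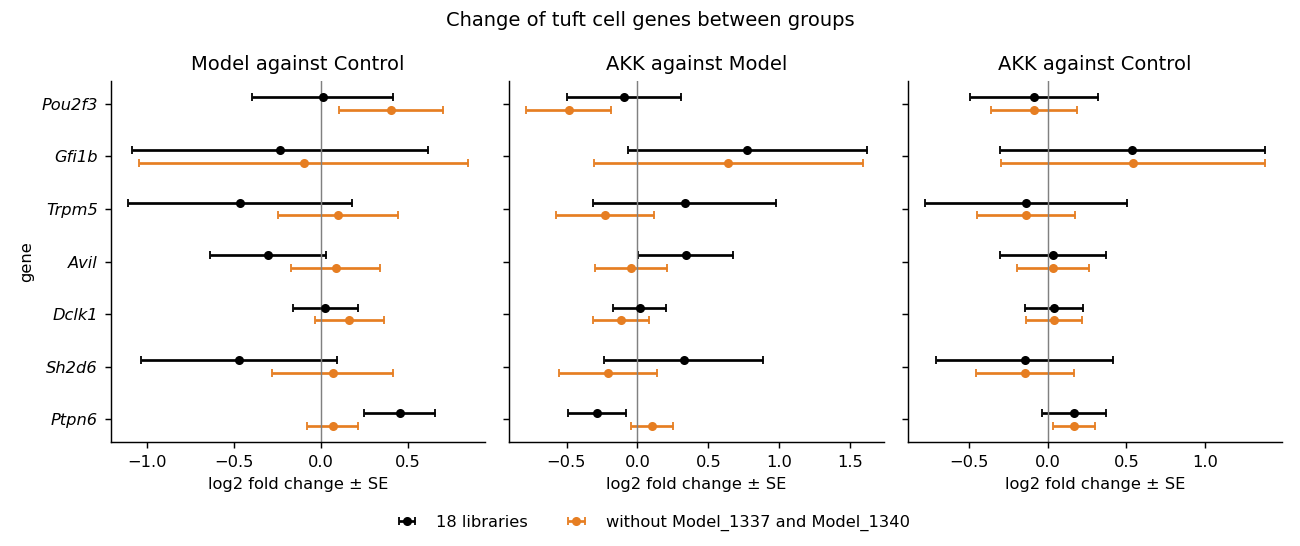
edgeR log2 fold change with its SE (horizontal axis) of the 7 tuft cell genes given a fold, for the 3 comparisons, over 18 libraries (black) and without Model_1337 and Model_1340 (orange). Trpm5, Sh2d6 and Avil move from below 0 to just above 0 in Model against Control when that pair is left out, and Ptpn6 from 0.45 to 0.07. The pair was chosen after the data were seen. It was lowest for those 3 genes and highest for Ptpn6, so the direction of the moves follows from the choice.

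In Model against Control, 0 of the 5 members tested were called, where 20.1% of all tested genes were called at an adjusted p under 0.05. At an unadjusted p under 0.05 edgeR and DESeq2 each had 1 member, Ptpn6, and limma and an exact rank sum test had 0. In AKK against Model, 0 of 5 were called, against 0.0214% of tested genes, and in AKK against Control 0 of 5, against 6.2%. In these comparisons edgeR, DESeq2, limma and the rank sum test each had 0 members at an unadjusted p under 0.05. The range of 0 of 8 members was apart between groups in any comparison, where 2.91%, 0.8% and 8.62% of tested genes had groups apart in Model against Control, AKK against Model and AKK against Control. A p above the threshold does not show that the levels were equal: the SE of the log2 fold change was 0.64 for Trpm5 and 0.56 for Sh2d6 but 0.19 for Dclk1.

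The comparisons that involve AKK share libraries with Model against Control, so their values are given side by side and not as separate evidence. For AKK against Model the edgeR log2 fold change was 0.33 ± 0.64 for Trpm5, 0.33 ± 0.56 for Sh2d6, 0.34 ± 0.33 for Avil and -0.28 ± 0.20 for Ptpn6 (adjusted p = 0.925, 0.915, 0.821 and 0.768). Without Model_1337 and Model_1340 these values were -0.23, -0.21, -0.05 and 0.10, so all 4 changed sign, and without Model_1341 they were 0.78, 0.87, 0.62 and -0.42. Within Model the pair was lowest and Model_1341 highest for Trpm5, Sh2d6 and Avil, and the reverse for Ptpn6. The direction of both moves therefore follows from which libraries were left out. Without the pair 0 of 5 members were called higher, against 0.0143% of tested genes. For AKK against Control they were -0.14 ± 0.64, -0.15 ± 0.56, 0.03 ± 0.33 and 0.17 ± 0.20 (adjusted p = 0.917, 0.896, 0.963 and 0.635). Mean FPKM in AKK and Control, each with SD and n = 6, was 1.19 ± 0.38 and 1.23 ± 0.45 for Trpm5, and 3.05 ± 0.97 and 3.16 ± 0.95 for Sh2d6.

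Inside each group the same libraries were low or high for several members. Of the 6 members with a value above 0 in all libraries, 4 were lowest in Control_2286 among Control libraries and 5 were highest in Control_2668. Among AKK libraries 4 were lowest in AKK_1309 and 4 highest in AKK_1303, and among Model libraries 4 were highest in Model_1341. Sh2d6 and Trpm5 kept a nearly fixed proportion: outside Model_1337 and Model_1340 the ratio of Sh2d6 to Trpm5 FPKM was 2.11 at lowest, 2.55 at the median and 3.05 at highest over 16 libraries, while Trpm5 itself ranged from 0.569 to 1.83. In the pair it was 5.30 and 5.34, from 16 and 30 estimated counts of Trpm5 and 21 and 42 of Sh2d6. With about 4 counts to a fragment, these ratios rest on few fragments and do not establish a changed proportion. The ratio of Dclk1 to Sh2d6 was 0.226 to 0.992 in the 16 libraries and 7.23 and 2.83 in the pair.

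Over those 16 libraries, on log2(FPKM + 0.1), Pearson's r and Spearman's rho were 0.95 and 0.95 for Trpm5 with Sh2d6, 0.83 and 0.77 for Trpm5 with Avil, 0.74 and 0.78 for Pou2f3 with Sh2d6, and 0.54 and 0.51 for Dclk1 with Sh2d6. Gng13 and Gfi1b, near the detection limit, had r with Sh2d6 of 0.34 and 0.49. Ptpn6 had r of -0.44 (rho -0.43) with Sh2d6 and 0.91 (rho 0.71) with the summed leukocyte genes. With the summed fibroblast genes its r was 0.64 (rho 0.58). Summed enteric neuron and glia genes had r of 0.60 with Trpm5, 0.65 with Sh2d6, 0.68 with Pou2f3 and 0.43 with Dclk1. For the summed epithelial genes r was -0.22 with Trpm5, -0.15 with Sh2d6, -0.12 with Pou2f3 and -0.66 with Dclk1 (rho -0.43 for Dclk1). The part of these cell types in the correlations between members was not tested. These are descriptions over libraries that share groups, and all genes of a library share its depth and composition. Centred on the group means, r was 0.96 for Trpm5 with Sh2d6.

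**Figure D3:**
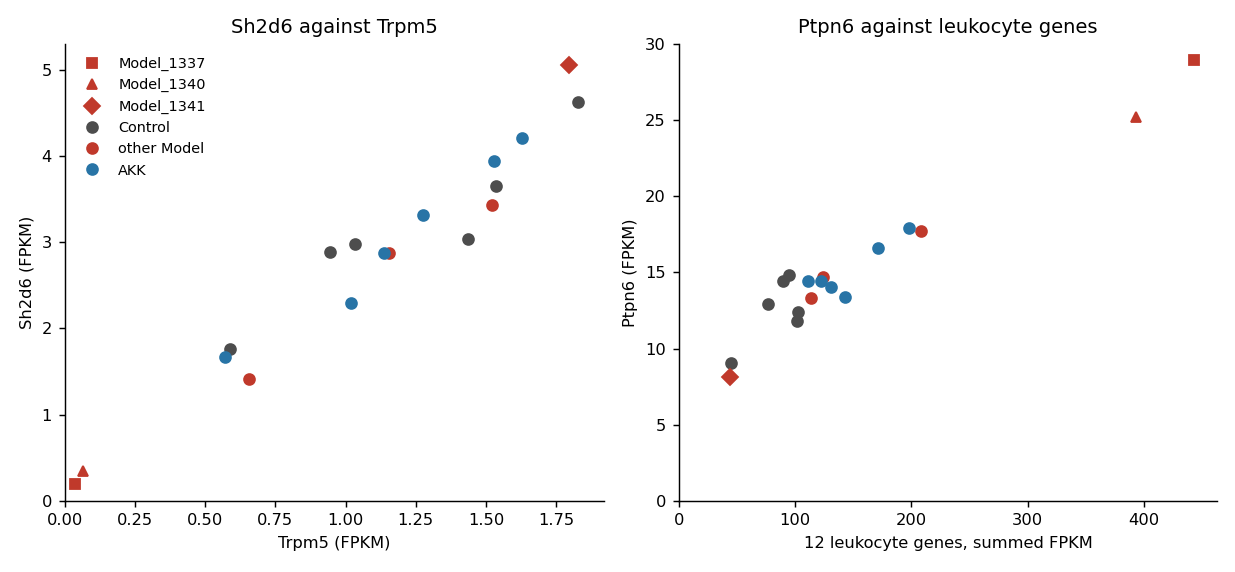
Left, FPKM of Sh2d6 against FPKM of Trpm5; right, FPKM of Ptpn6 against the summed FPKM of 12 leukocyte genes; each point is 1 of the 18 libraries, colored by group. Sh2d6 and Trpm5 rise together in all 3 groups with Model_1337 and Model_1340 near 0, and the same pair is at the top right for Ptpn6.

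Among 54 other tuft-associated genes in the table, Model_1337 and Model_1340 were the lowest 2 of 18 libraries for 5 (Sh2d7, Gnat3, Rgs13, Espn and Ffar3) and the highest 2 for 8 (Cd300lf, Inpp5d, Lrmp, Lyn, Pik3cg, Plcg2, Spib and Vav1), several of which leukocytes also express. Sh2d7, an adaptor related to Sh2d6, was listed at 0 in Model_1337 and was 0.105 FPKM in Model_1340, against a Control median of 1.68. Gnat3, the alpha subunit gustducin, was 0.0608 and 0, against 0.828. Rgs13, a regulator of G-protein signalling, was 0.731 and 0.978, against 2.89. Among all 14007 tested genes, 786 (5.61%) had these libraries as their lowest 2 of 18, as did 3 of the 8 members, Trpm5, Sh2d6 and Avil. A further 1065 tested genes (7.6%) had them as their highest 2, as did Ptpn6. Genes of other secretory cells were mixed in Model_1340. Of 10 enteroendocrine genes, 5 (Chga, Chgb, Gcg, Cck and Tph1) were below every Control library and 2 (Pyy and Insl5) above, and of 7 goblet cell genes, 1 (Muc2) was below and 4 (Tff3, Fcgbp, Zg16 and Spink4) above. In Model_1337, 8 of the 10 enteroendocrine genes and all 7 goblet cell genes were below every Control library. The part of the leukocyte, squamous and Hoxb13 levels in these values was not tested. In bulk tissue, fewer tuft cells and less RNA per tuft cell cannot be told apart.

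**Figure D4:**
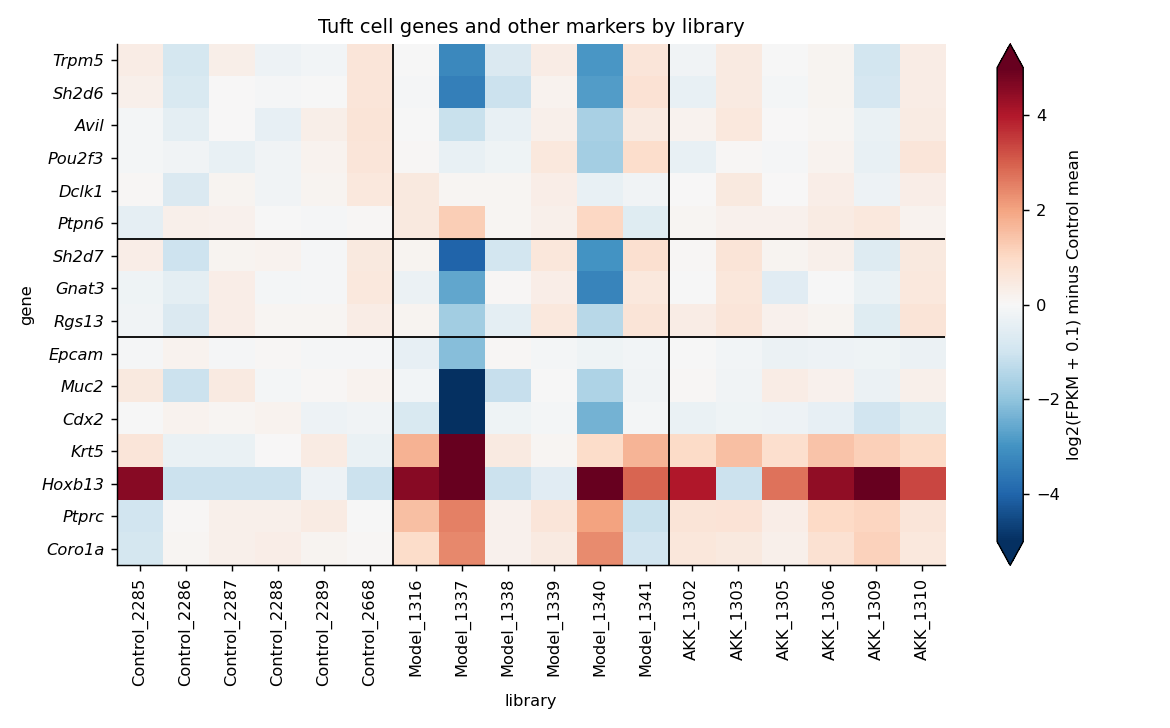
Difference of log2(FPKM + 0.1) from the Control mean (color, blue below and red above, cut at 5) for tuft cell members (top 6 rows), other tuft-associated genes (next 3) and markers of epithelium, squamous cells and leukocytes (bottom 7) in the 18 libraries (columns). Model_1337 and Model_1340 are blue for Trpm5, Sh2d6, Sh2d7 and Gnat3 and red for Ptpn6, Ptprc and Coro1a.

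The levels in AKK_1309 were the lowest of AKK for Trpm5 and Sh2d6, at 46.1% and 55.3% of the Control median. This library also had the lowest Cdx2 level of AKK, 55.9 FPKM, and the highest Hoxb13 level, 58.9 FPKM, and its leukocyte sum of 198 FPKM was the highest of AKK. Control_2286, lowest of Control for Trpm5 and Sh2d6 at 0.588 and 1.76 FPKM, was listed at 0 for Hoxb13 and had a Cdx2 level of 121 FPKM.

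By a fixed rule, the 6 tested genes whose pattern over the 18 libraries was most like the mean standardised profile of the members were Rgs13 (Spearman's rho 0.85), Sh2d7 (0.85), Zfp661 (0.82), Tmem44 (0.81), Nkx3-2 (0.80) and Tada3 (0.80). Over the 16 libraries without the pair the same rho were 0.79, 0.79, 0.77, 0.77, 0.73 and 0.76. Rgs13 and Sh2d7 were on the lists of tuft-associated genes and the other 4 were not.

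Further genes used to describe tuft cells were read from lists of taste transduction, effector, receptor, regulator and signalling genes, of which 38 were tested. In Model against Control 7 of the 38 were called higher and 0 lower, against 12.4% and 7.67% of all tested genes, and their median log2 fold change was 0.31. None of the 7 taste transduction genes or 3 receptor genes tested was among them. The smallest p-values on those lists belonged to Plcg2 and Plcb2, phospholipases C, at log2 fold changes of 0.84 ± 0.30 and 0.68 ± 0.27, and to Cd300lf and Il4ra, receptors also carried by leukocytes, at 1.13 ± 0.58 and 0.46 ± 0.26 (edgeR adjusted p = 0.0605, 0.0812, 0.173 and 0.222). At an unadjusted p under 0.05 by edgeR stood 15 of the 38. Hpgds, the hematopoietic prostaglandin D synthase, was higher by a log2 fold change of 1.04 ± 0.25 (edgeR adjusted p = 0.0112), Spib, a transcription factor of B cells and epithelium, by 1.61 ± 0.40 (0.0122), Pik3cg, a phosphoinositide 3-kinase subunit of immune cells, by 1.76 ± 0.42 (0.0103), and Lrmp, a membrane protein of lymphocytes and tuft cells, by 2.195 ± 0.53 (0.0108). Inpp5d, Lyn and Pik3r5, which act in leukocyte signalling, were higher by 1.10 ± 0.32, 0.82 ± 0.26 and 0.79 ± 0.27 (adjusted p = 0.0259, 0.0353 and 0.0469). In the same comparison 11 of 12 leukocyte genes were called higher, with a median log2 fold change of 1.24; their part in the 7 calls was not tested. Without Model_1337 and Model_1340, Hpgds was the only 1 of the 38 called (0.96 ± 0.29, adjusted p = 0.0474), against 5.25% of tested genes called higher and 3.91% lower. The count was 4 without Control_2286 or without Model_1337, 13 without Model_1338 or without Model_1341, and 1 with the leukocyte score as covariate. Of all 14007 tested genes these settings called 1743, 2333, 3126, 3408 and 670 in that order, against 2811 in the main fit.

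Hpgds was 0.815 FPKM at lowest, 0.958 at the median and 1.89 at highest in Control, 0.846, 2.45 and 3.71 in Model, and 1.83, 2.58 and 3.17 in AKK. Model_1341 lay among the Control libraries and the other Model libraries lay above all of them, and AKK overlapped Control by Control_2668 alone. In AKK against Control it was the only gene of the 38 called, at 1.04 ± 0.25 (edgeR adjusted p = 0.0261), against 3.72% of tested genes called higher and 2.48% lower. It missed the threshold when any of Control_2286, Control_2288, Control_2289, AKK_1306, AKK_1309 or AKK_1310 was left out, with an adjusted p of at most 0.0666. In AKK against Model 0 of the 38 were called and 3 had an unadjusted p under 0.05 by edgeR, with Pla2g4a, a phospholipase A2, having the smallest p at a log2 fold change of 0.39 ± 0.13 (adjusted p = 0.718).

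Genes listed for type 2 immunity, not all of them downstream of tuft cells, ranged from undetected to abundant, with Retnlb, a goblet cell product, at up to 838 FPKM. Il25, the tuft cell cytokine, was listed at 0 to 0.186 FPKM and did not pass the filter. Of 9 type 2 genes tested in Model against Control, 2 were called higher, against 12.4% of all tested genes. They were Il33 at a log2 fold change of 1.66 ± 0.45 (edgeR adjusted p = 0.0186) and Arg1 at 5.78 ± 1.41 (0.0110). Il33 encodes an alarmin of epithelium and stroma, and Arg1 encodes arginase 1. Arg1 was 372 FPKM in Model_1337 and 0.987 to 2.75 in the other Model libraries, against 0.619 to 1.86 in Control. Without Model_1337 and Model_1340 the log2 fold changes were 0.95 ± 0.37 for Il33 and 0.94 ± 0.32 for Arg1 (adjusted p = 0.116 and 0.0717). In AKK against Control and AKK against Model 0 of the 9 were called, against 6.2% and 0.0214% of all tested genes.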

How the data were processed

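The members and all gene lists were chosen with earlier results of these data known. Per the labels' protocols, polyadenylated colon RNA was made into strand-marked libraries. The tools named, per the submitters' processing notes, were StringTie 2.1.6, HISAT2 2.2.1, cutadapt 1.9, DESeq2 and edgeR, with mm10 as the build; the sources used here give no roles, annotation or strand setting. Per the file headers, the authors deposited an FPKM and an estimated count per gene and library. The estimated counts the authors deposited were whole numbers, and 4, 8 and 12 occurred 2.36, 1.74 and 1.36 times as often as adjacent values, so about 4 counts stood for 1 fragment. No pair of libraries was identical.

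Genes reaching FPKM 1 in 6 or more libraries entered the test by edgeR 4.0.16 (R 4.3.3; TMM, quasi-likelihood) in 1 model over 18 libraries, with Benjamini-Hochberg adjustment over 14007 genes and a threshold of 0.05. Members below the filter were fitted on all genes with a count, and a mean count under 10 gave no fold. Alternatives used DESeq2 1.42.0, limma 3.58.1 on log2(FPKM + 1) or log2(FPKM + 0.1), an exact rank sum test (smallest two-sided p 0.00216), other scalings and filters, covariates and left-out libraries. The script was tested on simulated data. Leaving out Model_1337 with Model_1340, and scaling to epithelium, were chosen after seeing the data. Named genes were all 8 members, at most 4 genes per other list with the largest called change in Model against Control (or 2 with the smallest p), and the 6 genes of most similar pattern; Pik3r5, Pla2g4a, Gnat3, Tssc4, Tsfm, Chtf18, Espn, Ffar3, Vav1 and the marker genes were added after their values were seen. Gene spans are on mm10, promoter windows are from RefSeq and overlaps from GENCODE M21, and intervals of 0 cover counting error only.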

Additional observations from a re-analysis of the deposited data

Results flagged for a closer look

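Gng13 had 1 library far above the other 5 in 2 groups. In Model, Model_1341 had an FPKM of 0.1855 where 4 libraries were listed at 0 and the other at 0.0441. In AKK, AKK_1303 had 0.2343 where the next highest had 0.0704. These values came from 14 and 13 estimated counts, about 4 counts to a fragment. Of 24 groups looked at, 8 genes in 3 groups, chance flags about 1 in 20.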

How the results depend on the processing

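In AKK against Model and AKK against Control, 0 members were called under every alternative run. In AKK against Model no alternative called more than 13 genes in all. In Model against Control 0 members were called, with these exceptions. Without Model_1341, 1 was called, Ptpn6 (leaving out 1 library in turn gave 0 to 1), as were 3408 of all 14007 tested genes. With libraries scaled to epithelium, 2 were called, Ptpn6 and Dclk1. That scaling moved the median log2 fold change of all genes by 0.93 and called 9155 of 14007 tested genes higher. The next counts have in brackets all genes called, of 14007 tested unless stated. The count of other tuft-associated genes in Model against Control was 7 (2811). It was 11 with DESeq2 (3567) and 3 with limma at either pseudocount (1843 and 1876). The rank sum test called 0, but it called 0 of all tested genes, so this 0 is not particular to the list. The count was 4 with no filter (2220 of 36451) and 3 with the 2 groups alone (939). It was 0 with an epithelium covariate (652), 1 with a leukocyte covariate (670) and 1 without Model_1337 and Model_1340 (1284). Scaled to epithelium it was 29 (9189), and with 1 library left out it was 4 to 13. The count in AKK against Control was 1 (869). It was 3 with DESeq2 (1841), 9 with the rank sum test (1792) and 8 with the 2 groups alone (2722). It was 4 with the epithelium covariate (1074) and 0 with the leukocyte covariate (365). Without Model_1337 and Model_1341 it was 4 (2563), and without Model_1337 and Model_1340 it was 6 (2398). Scaled to epithelium it was 0 (44), and with 1 library left out it was 0 to 1. The cause of these moves was not tested.

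Log2 fold changes of members that were not called changed sign under some settings, given here for Model against Control, then AKK against Model, then AKK against Control where each applies. With the epithelium covariate, Trpm5 was 0.27, Gfi1b 0.089, Sh2d6 0.19 and Arg1, called in the main test, -0.19 (Model against Control), and Trpm5 0.51, Pou2f3 0.070 and Sh2d6 0.40 (AKK against Control). With the leukocyte covariate, Trpm5 was 0.41, Avil 0.16, Gfi1b 0.13, Sh2d6 0.23 and Ptpn6 -0.11 (Model against Control), Dclk1 -0.010 (AKK against Model), and Trpm5 1.001, Pou2f3 0.45, Sh2d6 0.81 and Ptpn6 -0.21 (AKK against Control). Scaled to epithelium, Avil was 0.28 and Gfi1b 0.37 (Model against Control), Dclk1 -0.44 (AKK against Model), and Trpm5 0.29, Pou2f3 0.36 and Sh2d6 0.29 (AKK against Control), while the median of all genes moved by 0.93, -0.50 and 0.45. Without Model_1337 and Model_1340, Trpm5 was 0.097, Avil 0.083 and Sh2d6 0.067 (Model against Control), and Dclk1 -0.12, Trpm5 -0.23, Avil -0.046, Sh2d6 -0.21 and Ptpn6 0.10 (AKK against Model). Without Model_1337 and Model_1341, Pou2f3 was -0.30 (Model against Control) and 0.21 (AKK against Model), and Dclk1 -0.021 (AKK against Model). Pou2f3 was -0.010, 0.018 and 0.0078 with limma on log2(FPKM + 1), -0.14, 0.15 and 0.015 on log2(FPKM + 0.1), -0.0078 with counts divided by 4 and -0.054 with upper-quartile scaling (both Model against Control), and 0.0086 in the rank sum comparison (AKK against Control). Dclk1 was -0.019 with no filter and -0.014 with edgeR's default filter (Model against Control). In Model against Control, the alternatives other than leaving out 1 library gave -0.99 to 0.41 for Trpm5, -1.08 to 0.23 for Sh2d6 and -0.45 to 0.28 for Avil. Leaving out 1 library in turn gave -0.94 to -0.21 for Trpm5, -1.03 to -0.23 for Sh2d6 and -0.60 to -0.13 for Avil, lowest without Model_1341. For members whose sign changed, the range was -0.11 to 0.13 for Dclk1, -0.38 to 0.23 for Pou2f3 and -0.74 to 0.030 for Gfi1b (Model against Control), -0.069 to 0.095 for Dclk1 and -0.32 to 0.29 for Pou2f3 (AKK against Model), and -0.065 to 0.19 for Avil, -0.088 to 0.15 for Dclk1, -0.24 to 0.070 for Pou2f3 and -0.29 to 0.0063 for Trpm5 (AKK against Control).

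No paired analysis was possible because the library numbers are not shared between groups. At 0 to 59 counts per library, Gfi1b and Gng13 were too shallow for any but large differences to be detectable.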

Other observations

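The libraries Model_1337 and Model_1340 were also the lowest 2 of 18 for 4 of 6 crypt stem cell genes and 5 of 10 enteroendocrine genes. The same held for 4 of 12 epithelial marker genes, 1 of 7 goblet cell genes and 0 of 12 enteric neuron and glia genes, against 5.61% of all tested genes. The summed FPKM of the crypt stem cell genes was 16.2 in Model_1340, the lowest library, and 20.6 in Model_1337, the next lowest. Fibroblast genes were called higher in Model against Control for 7 of 8 genes and in AKK against Control for 6 of 8 genes by edgeR. Their median log2 fold changes were 1.24 and 1.21, and 12.4% and 3.72% of all tested genes were called higher in these comparisons.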
